A study of Mus musculus with 6 samples.

Results

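The 10 core circadian clock genes were examined in inguinal white adipose tissue (iWAT) of mice housed at 4 °C (cold) or at 30 °C (thermoneutral). They are Arntl, Clock, Npas2, Per1, Per2, Per3, Cry1, Cry2, Nr1d1 and Nr1d2, chosen by name, and all 10 were found among the 22481 gene symbols of the RNA-seq table. Expression was measured in 6 samples, 3 cold and 3 thermoneutral, after 7 days at each temperature. The animals were male C57BL/6 mice (C57BL/6J in the methods of the study) with no genetic alteration named, so temperature was the difference between the groups that the labels give. iWAT is a subcutaneous fat depot that gains beige, heat-producing adipocytes when mice are kept cold. The number of animals per sample is not given in the labels, so p-values measure only the spread between these samples, which may be technical.

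The clock of mammalian cells is a transcriptional feedback loop. ARNTL (also called BMAL1) pairs with CLOCK or NPAS2 and binds E-box sequences to activate the Per, Cry and Nr1d genes. PER and CRY proteins accumulate and inhibit that pair, and the nuclear receptors NR1D1 and NR1D2 (REV-ERBα and REV-ERBβ) repress Arntl through response elements (ROREs) that they share with the activating ROR receptors. In mouse peripheral tissues the transcripts of Arntl, Clock and Npas2 peak in roughly opposite phase to those of Nr1d1 and of the output factor Dbp, and adipose tissue is among the tissues with such rhythms. The time of day at collection is not given in the sources used here. With 1 collection per group, a shift of phase and a change of level therefore cannot be told apart.

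Promoter sequence was searched for the letters of E-boxes and ROREs. It is shown because Arntl and Nr1d1, on the 2 sides of the loop, moved in opposite directions. RefSeq promoters of GRCm38.p6, which run from 250 bases before to 50 bases after a start, were matched by symbol for 9 of the 10 genes (all but Per2), with 13 promoters among them. In the lines that follow each stretch has 30 bases in the direction of the gene, and capitals mark the matched motif.
Arntl, RORE, chr7:113207528-113207557, plus strand: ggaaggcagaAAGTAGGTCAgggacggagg
Per1, E-box, chr11:69098771-69098800, plus strand: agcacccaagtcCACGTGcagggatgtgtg
Cry1, E-box, chr10:85185097-85185126, minus strand: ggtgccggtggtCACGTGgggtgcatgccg
Cry1, non-canonical E-box, chr10:85185116-85185145, minus strand: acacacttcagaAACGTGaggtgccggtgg
Cry2, non-canonical E-box, chr2:92434218-92434247, minus strand: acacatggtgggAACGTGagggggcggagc
Nr1d1, non-canonical E-box, chr11:98775388-98775417, minus strand: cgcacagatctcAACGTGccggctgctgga
Per3, D-box, chr4:151044852-151044881, minus strand: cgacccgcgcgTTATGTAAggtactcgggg
Per3, D-box, chr4:151044805-151044834, minus strand: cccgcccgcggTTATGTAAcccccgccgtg

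The motifs were searched on both strands as CACGTG (E-box), CACGTT (non-canonical E-box, which reads AACGTG on the other strand), AAN followed by TAGGTCA (RORE), TTANGTAA (D-box, the site of DBP, TEF, HLF and NFIL3) and TGACGTCA (CRE, the site of CREB). E-boxes were in 2 of the 13 member promoters and in 7.15% of all 32851 promoters, and non-canonical E-boxes were in 3 of the 13, those of Cry1, Cry2 and Nr1d1, and in 4.68% of all. The RORE was in 1 of the 13, an Arntl promoter, and in 0.219% of all. The D-box was in 1 of the 13, where Per3 held 2 copies, and in 2.32% of all, and the CRE was in 0 of the 13 and in 1.79% of all. The first base of the motif lay at -166 in Per1, -60 (E-box) and -79 (non-canonical E-box) in Cry1, -166 in Cry2, -28 in Nr1d1, -205 and -158 in Per3, and +27 in Arntl, counted from the start base. These matches describe the letters only, and whether any of them bears on expression was not tested. E-boxes of either form were matched in Nr1d1, which rose in cold, and also in Per1, Cry1 and Cry2, which fell.

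A common property of all 6 libraries has to be known before the members are read. The values are fragment counts that the authors had divided by 1 size factor per sample, called scaled counts here, with estimated library sizes of 15261977 to 16936366 fragments (cold) and 18894314 to 23636675 fragments (thermoneutral). Summed scaled counts were 17434977 to 17588754 in cold and 19276924 to 19603526 in thermoneutral samples, and the median tested gene was lower in cold by 0.54 on the log2 scale. Each difference is therefore also given after the samples were centred on their median gene. The 8 thermogenic markers held 0.874% to 1.14% of scaled counts in cold and 0.0126% to 0.0178% in thermoneutral samples and all rose. The 8 adipocyte markers held 2.13% to 2.97% and 1.32% to 2.49%. Preadipocyte and fibroblast markers were at 0.190% to 0.205% in cold and 0.431% to 0.915% in thermoneutral samples (8 of 8 fell, also after centring), and macrophage markers at 0.0188% to 0.0337% and 0.0581% to 0.0878% (7 of 7 fell, 4 after centring). Skeletal muscle markers made up 1.17% in cold replicate 2 against 0.0105% to 0.0562% elsewhere, and epithelial markers 0.149% in thermoneutral replicate 1 against 4.7e-05% to 0.000275% elsewhere, where 1 to 3 of the 6, among them Krt5, Krt8 or Cldn4, were at 0. Lymphocyte markers were highest in cold replicate 2, at 0.010%, and endothelial markers overlapped between the groups. The part of these other cells in the differences of the clock genes was not tested, and in whole tissue fewer cells of a type and less RNA per cell cannot be told apart.

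All 10 clock genes were among the 11629 genes tested, and none of them had overlapping cold and thermoneutral values. Arntl, Npas2, Per1, Per2, Cry1 and Cry2 fell in cold, Nr1d1 and Nr1d2 rose, and Clock and Per3 did not pass the test (limma, adjusted p under 0.05). Of all tested genes 35.2% were called lower and 6.25% higher by the same rule, so a count of 6 lower among 10 has to be read against a table in which lower calls were common. After median centring 5.41% of all genes were called lower and 10.3% higher, and of the members Arntl, Npas2, Per2 and Cry1 fell and both Nr1d genes rose. The groups did not overlap for 52.1% of genes on the lower side and 9.1% on the higher side, and after centring for 18.2% and 22.4%. Of the members, 8 were apart on the lower and 2 on the higher side, and after centring 6 and 2, with Clock and Per3 then overlapping. The median log2 difference was -1.33 over the members and -0.54 over all tested genes, and -0.80 and -0.01 after centring. With 10 ways to split 6 samples into groups of 3, an exact permutation test of a single gene cannot go below p = 0.1, so the calls rest on limma.

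**Figure D1:**
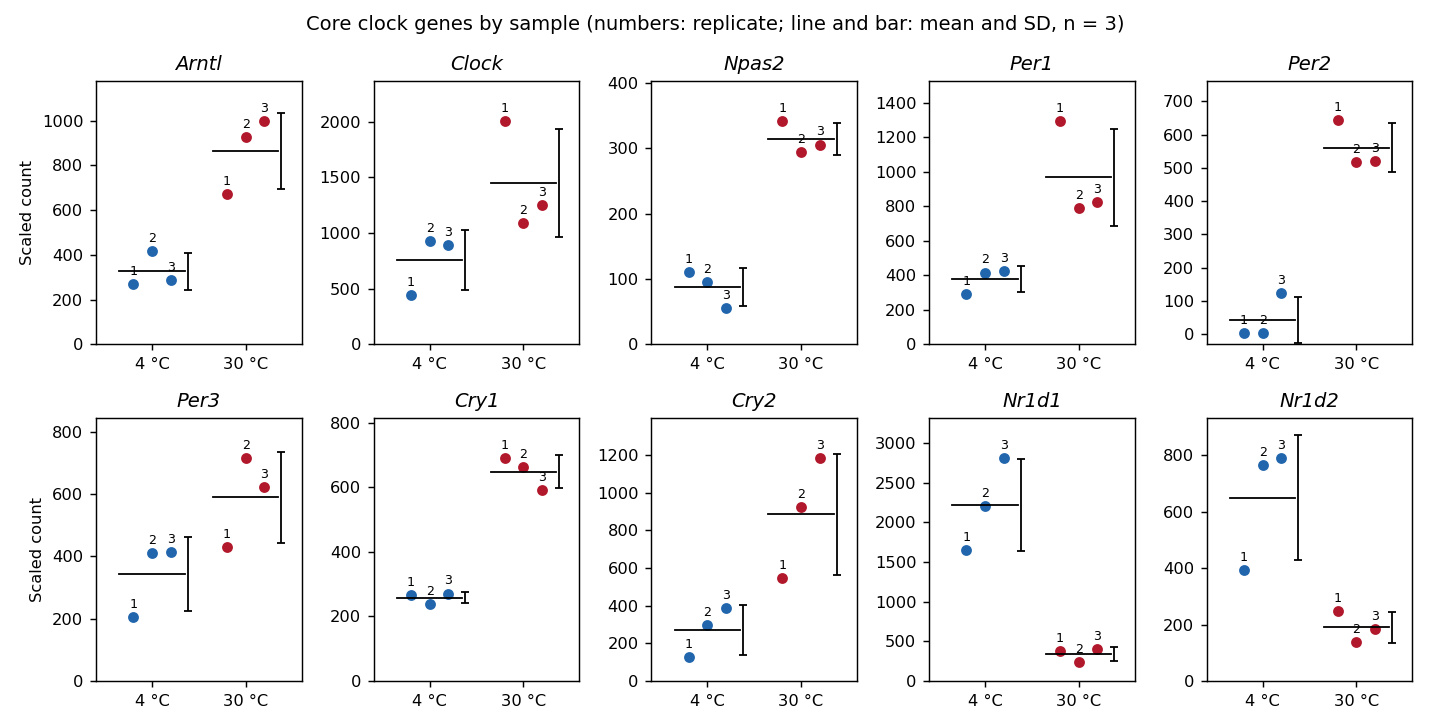
Scaled counts of the 10 clock genes, 1 panel per gene with its own axis from 0, except Per2, whose axis starts below 0 to hold its error bar; points are samples with their replicate number, horizontal lines are means and bars are the SD (n = 3). The cold samples lie below the thermoneutral samples in 8 panels and above them in the panels of Nr1d1 and Nr1d2.

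**Figure D2:**
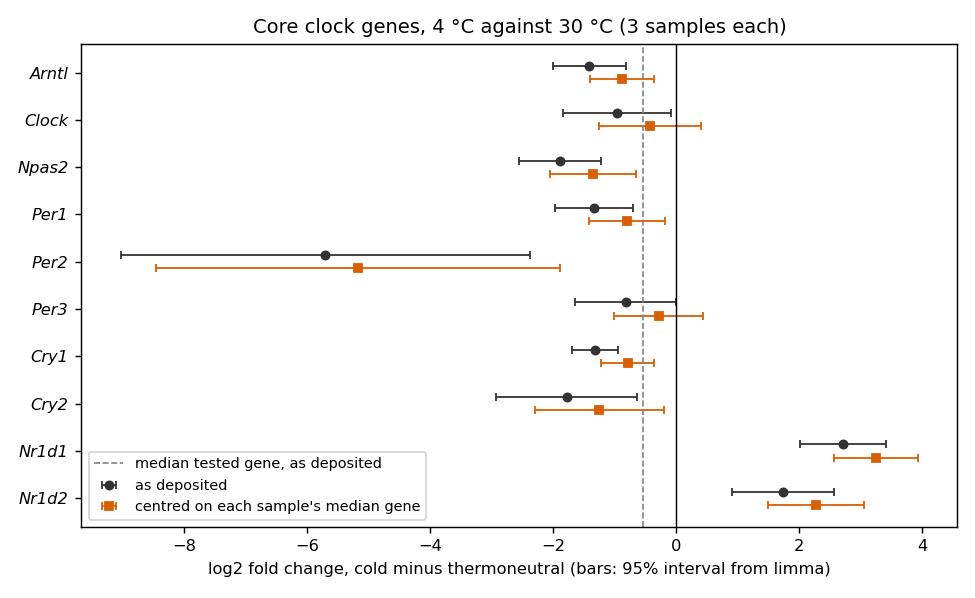
Log2 fold change of each clock gene, cold minus thermoneutral, with the 95% interval from limma (3 samples per group), as deposited (circles) and after centring on the median gene (squares); the dashed line is the median tested gene at -0.54. Nr1d1 and Nr1d2 lie above 0 in both forms. The interval of Per3 reaches 0 in both forms, and that of Clock after centring.

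On the activating side of the loop Arntl and Npas2 fell in cold and Clock was not called. Arntl encodes the partner that CLOCK and NPAS2 share (ENSMUSG00000055116, chromosome 7, 113207465 to 113314126, GRCm38, plus strand). Its scaled counts were 269.6, 419 and 289 in cold replicates 1 to 3 and 671, 926 and 998 in thermoneutral replicates 1 to 3. All 3 cold samples were below the lowest thermoneutral sample, which was replicate 1. The means were 326 ± 81.1 (SD, n = 3) and 865 ± 172 (SD, n = 3), and the log2 difference was -1.41 (SE 0.25, limma adjusted p = 0.010), or 2.67-fold lower in cold. After centring it was -0.88 (limma adjusted p = 0.038).

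Npas2, the paralogue of Clock that can take its place (chromosome 1, 39193731 to 39363236, plus strand), had scaled counts of 111, 96.0 and 55.0 in cold and 342, 294 and 306 in thermoneutral samples. The thermoneutral samples lay close together, and cold replicate 3 was the lowest of all. The means were 87.3 ± 28.9 and 314 ± 24.8 (SD, n = 3 each), with a log2 difference of -1.89 (SE 0.28, limma adjusted p = 0.0075) and -1.36 after centring (limma adjusted p = 0.026). Npas2 was thus 3.71-fold lower in cold.

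Clock itself, which encodes the histone acetyltransferase partner of ARNTL (chromosome 5, 76209868 to 76304792, minus strand), had scaled counts of 443, 930 and 888 in cold and 2004, 1088 and 1253 in thermoneutral samples. Cold replicate 1 and thermoneutral replicate 1 stood at the 2 ends, and the other 4 samples lay between 888 and 1253. The means were 754 ± 270 and 1448 ± 488 (SD, n = 3 each). The log2 difference of -0.97 had a 95% interval of -1.85 to -0.09 and did not pass the adjusted threshold (limma adjusted p = 0.073), and after centring it was -0.43 with overlapping groups (limma adjusted p = 0.44).

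Among the negative regulators encoded by Per genes, Per1 fell, Per2 fell to near the detection limit in 2 of 3 cold samples, and Per3 was not called. Per1, a partner of CRY that also responds early to hormonal and cAMP signals (chromosome 11, 69095217 to 69109960, plus strand), had scaled counts of 294, 415 and 427 in cold and 1293, 790 and 823 in thermoneutral samples. Thermoneutral replicate 1 was the highest, and the groups did not overlap, with 427 the highest cold value and 790 the lowest thermoneutral value. The means were 379 ± 73.9 and 968 ± 281 (SD, n = 3 each), the log2 difference was -1.33 (SE 0.26, limma adjusted p = 0.013), and after centring -0.80 (limma adjusted p = 0.085), no longer past the threshold.

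Per2, the PER protein gene whose loss disrupts behavioural rhythms in mice (chromosome 1, 91415982 to 91459324, minus strand), had scaled counts of 2.25, 2.04 and 123 in cold and 645, 518 and 520 in thermoneutral samples. Cold replicates 1 and 2 thus stood far below cold replicate 3, and the cold group was not uniform. The values of cold replicates 1 and 2 equal an estimated 1.97 and 1.94 fragments, which are not whole fragments. A count of 2 fragments, to which both round, has an exact Poisson 95% interval of 0.242 to 7.22, for counting error only. As the values are not whole counts, that interval is only a rough guide to them. The means were 42.5 ± 70.0 and 561 ± 72.7 (SD, n = 3 each), a ratio of means of 13.2. The fitted log2 difference was -5.71 (SE 1.39, 95% interval -9.03 to -2.38, limma adjusted p = 0.022) and depended on the pseudocount, being -4.40 with 10 and -6.03 with 0.1. On log2(FPKM + 1), where low values weigh less, it was -2.08 (limma adjusted p = 0.0041), and on scaled counts it was -5.17 after centring (limma adjusted p = 0.049).

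The size of the Per2 difference rested on which cold samples were included. Without cold replicate 3 it was -7.47, and without cold replicate 1 or 2 it was -4.84 or -4.80, with limma adjusted p values of 0.069 and 0.054. The call was also lost without thermoneutral replicate 2 or 3, where the difference was -5.76 in both (limma adjusted p = 0.063 in both). In all of these fits Per2 stayed lower in cold.

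Per3, the last of the Per genes and dispensable for rhythms in mice that keep the others (chromosome 4, 151003652 to 151044665, minus strand), had scaled counts of 204, 411 and 413 in cold and 431, 716 and 623 in thermoneutral samples. Thermoneutral replicate 1 lay just above the upper cold samples, and cold replicate 1 was lowest. The means were 343 ± 120 and 590 ± 146 (SD, n = 3 each), and the log2 difference was -0.82 with a 95% interval of -1.64 to 0.00 (limma adjusted p = 0.092). After centring it was -0.29 (limma adjusted p = 0.56). The table gives Per3 a locus of 150914562 to 151861876, which takes in Camta1, a calmodulin-binding transcription activator gene that covers Per3 on the same strand in GENCODE M21. Camta1 had 101, 169 and 162 scaled counts in cold and 161, 156 and 140 in thermoneutral samples, with a log2 difference of -0.11 (limma adjusted p = 0.70), and how fragments were divided between the 2 genes is uncertain.

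Both Cry genes, which encode the strongest transcriptional repressors of the loop, fell as deposited. Cry1 (chromosome 10, 85131700 to 85185064, minus strand) had scaled counts of 265, 239 and 271 in cold and 692, 662 and 592 in thermoneutral samples. Its samples lay close together in both groups, with means of 258 ± 16.8 and 649 ± 51.1 (SD, n = 3 each). The log2 difference was -1.32 (SE 0.16, limma adjusted p = 0.0045), or 2.50-fold lower in cold, and -0.79 after centring (limma adjusted p = 0.030).

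Cry2 (chromosome 2, 92403646 to 92434043, minus strand) had scaled counts of 126, 296 and 389 in cold and 548, 921 and 1184 in thermoneutral samples. Both groups were spread widely, with replicate 1 the lowest in each. The means were 270 ± 133 and 884 ± 320 (SD, n = 3 each), and the log2 difference was -1.78 (SE 0.48, limma adjusted p = 0.029), against -1.25 after centring (limma adjusted p = 0.11). The call was lost without cold replicate 1 (-1.31, limma adjusted p = 0.051), cold replicate 2 (-1.92, 0.052), thermoneutral replicate 2 (-1.72, 0.082) or thermoneutral replicate 3 (-1.54, 0.086). The antisense gene D930015M05Rik shares 23417 bases with Cry2, and the library kit does not mark strand, so reads of the 2 genes cannot be told apart where exons overlap.

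The 2 repressors of Arntl moved the other way. Nr1d1 (REV-ERBα, chromosome 11, 98767932 to 98775333, minus strand) had scaled counts of 1648, 2201 and 2812 in cold and 374, 237 and 404 in thermoneutral samples. The lowest cold sample was above the highest thermoneutral sample by a margin larger than the spread within either group. The means were 2220 ± 582 and 338 ± 89.0 (SD, n = 3 each), and the log2 difference was 2.71 (SE 0.29, 95% interval 2.02 to 3.41, limma adjusted p = 0.0037), or 6.56-fold higher in cold. After centring it was 3.25 (limma adjusted p = 0.0016), and as deposited it ranked at place 87 from the highest among all tested genes.

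Nr1d1 shares its 3′ end, 1075 bases, with Thra, the thyroid hormone receptor α gene on the opposite strand, and the kit does not mark strand. Thra had 1463, 1373 and 1287 scaled counts in cold and 1628, 2960 and 3118 in thermoneutral samples. Its log2 difference was -0.85 (limma adjusted p = 0.048), the opposite sign to Nr1d1, and -0.31 after centring (limma adjusted p = 0.47). The table gives Nr1d1 a locus of 98740638 to 98775333, wider than the gene on the side of Thra, so how fragments were divided between these 2 genes is uncertain as well.

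Nr1d2 (REV-ERBβ, chromosome 14, 18204054 to 18239127, minus strand) had scaled counts of 394, 767 and 791 in cold and 248, 138 and 182 in thermoneutral samples. Cold replicate 1 was nearest to the thermoneutral samples, as it was for Nr1d1. The means were 651 ± 223 and 190 ± 55.1 (SD, n = 3 each), and the log2 difference was 1.75 (SE 0.35, limma adjusted p = 0.014), or 3.35-fold higher in cold, and 2.28 after centring (limma adjusted p = 0.0070). As deposited, the call was lost without thermoneutral replicate 2 (1.54, limma adjusted p = 0.051) or 3 (1.74, 0.050).

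Levels of different genes were compared per transcript length, as FPKM (fragments normalized to transcript length and library size), and the order of the members differed between the groups. In cold samples Nr1d1 stood highest with 40.4 ± 11.1 FPKM (SD, n = 3), and its lowest sample, 29.8, was above every sample of Nr1d2, which followed with 6.58 ± 2.28. Arntl (5.27 ± 1.31), Clock (4.57 ± 1.64), Per3 (4.05 ± 1.28), Cry1 (4.02 ± 0.26), Per1 (3.95 ± 0.86) and Cry2 (3.30 ± 1.76) came next in FPKM, each overlapping its neighbour in this order. Npas2 (1.06 ± 0.33 FPKM) lay below all samples of Cry2, and Per2 (0.33 ± 0.55 FPKM) overlapped Npas2. Overlap was judged over the samples of the group, and whether neighbours differ within samples was not tested. Clock, for instance, was above Per3 in FPKM in every cold sample although their ranges overlap.

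In thermoneutral samples Arntl was highest with 14.0 ± 2.77 FPKM (SD, n = 3), followed by Cry2 (10.8 ± 3.85), Cry1 (10.1 ± 0.80), Per1 (9.98 ± 2.89), Clock (8.77 ± 2.96), Per3 (6.25 ± 1.48), Nr1d1 (6.20 ± 1.72), Per2 (4.38 ± 0.57) and Npas2 (4.22 ± 0.63). Each of these ranges overlapped that of the next gene in the order. Nr1d2, the second highest in cold, was the lowest at 1.92 ± 0.62 FPKM, with no overlap with Npas2.

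**Figure D3:**
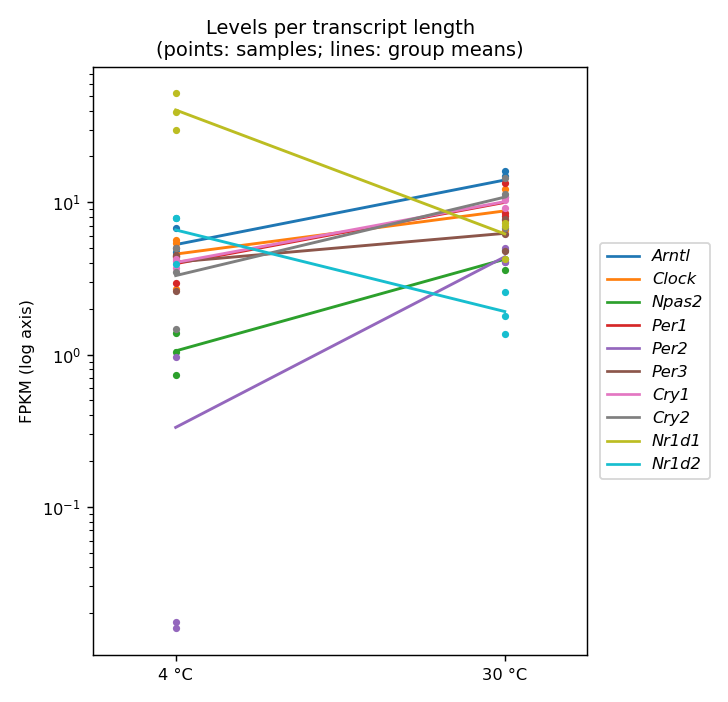
FPKM of the 10 clock genes on a log axis at 4 °C and 30 °C; points are samples and lines join the means of 3 samples. The lines of Nr1d1 (40.4 to 6.20 FPKM) and Nr1d2 (6.58 to 1.92 FPKM) run down from cold to thermoneutral, from place 1 to place 7 and from place 2 to place 10 in the order of the members, and 2 cold samples of Per2 lie far below the other one.

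A ratio of 2 genes within a sample does not depend on the scaling between samples, apart from the 1 added to each value, which matters at low counts. Such ratios serve as a guide to the state of the clock sample by sample. Arntl and Nr1d1 are known to peak in roughly opposite phase, and their log2 difference (Arntl minus Nr1d1, scaled count + 1) was -2.61, -2.39 and -3.28 in cold and 0.84, 1.96 and 1.30 in thermoneutral samples. Nr1d1 exceeded Arntl in every cold sample, and the reverse held in every thermoneutral sample. In linear terms Nr1d1 over Arntl was 6.11, 5.26 and 9.74 in cold and 0.557, 0.256 and 0.405 in thermoneutral samples. The mean log2 ratios of -2.76 ± 0.46 and 1.37 ± 0.56 (SD, n = 3 each) differed by -4.13.

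Npas2 minus Nr1d2, an activator and a REV-ERB gene again, differed in the same direction, with log2 values of -1.82, -2.98 and -3.82 in cold and 0.46, 1.08 and 0.74 in thermoneutral samples. The groups were again apart, by -3.64 in the mean, and the spread was larger in cold (SD 1.00) than at thermoneutrality (SD 0.31). Clock minus Per2 gave 7.10, 8.26 and 2.84 in cold and 1.63, 1.07 and 1.27 in thermoneutral samples. The 2 high values belong to the cold samples with about 2 Per2 fragments, and cold replicate 3 was nearer to the thermoneutral samples than to the other cold samples.

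The other 2 pairs did not separate the groups. Arntl minus Per3 was 0.40, 0.03 and -0.52 in cold and 0.64, 0.37 and 0.68 in thermoneutral samples, overlapping, with means that differed by -0.59. Cry1 minus Per1 was -0.15, -0.79 and -0.65 in cold and -0.90, -0.25 and -0.47 in thermoneutral samples, also overlapping, with a difference in means of 0.01. No test was run on the ratios, since they are a description by sample.

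**Figure D4:**
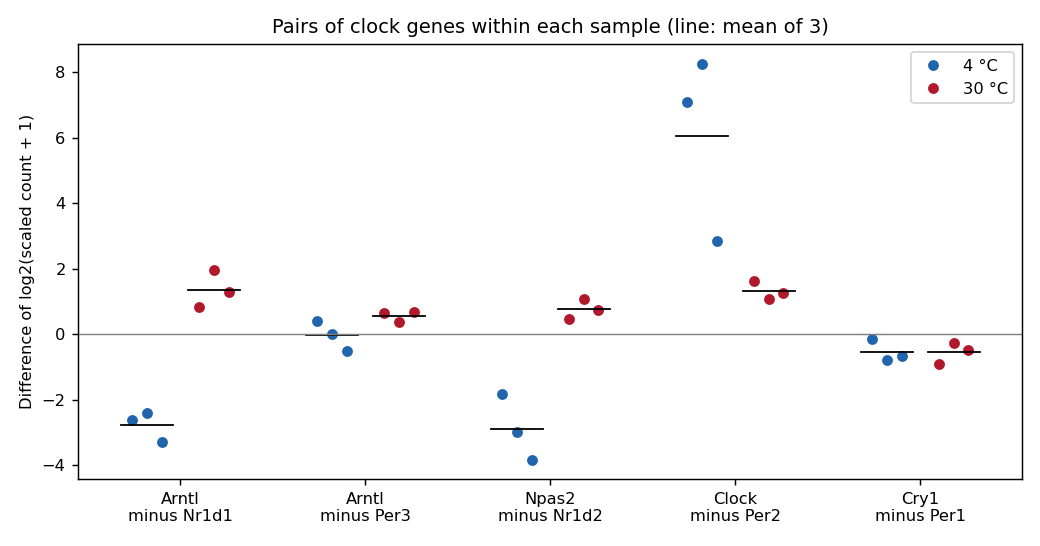
Log2 difference between pairs of clock genes within each sample (scaled count + 1); points are samples, coloured by temperature, and lines are means of 3. The pairs Arntl minus Nr1d1 and Npas2 minus Nr1d2 lie below 0 in all cold samples and above 0 in all thermoneutral samples, and Arntl minus Per3 and Cry1 minus Per1 overlap between the groups.

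Samples of 1 group also differed among themselves in several clock genes at once. After centring on the median gene and on the mean of each gene, cold replicate 1 was the lowest of all samples for Clock (-0.80), Per1 (-0.64), Per3 (-0.71) and Cry2 (-1.47), and the lowest of the cold samples for Nr1d1 (1.33) and Nr1d2 (0.59). Cold replicate 3 was the lowest for Npas2 (-1.27) and the highest for Nr1d1 (2.00) and Nr1d2 (1.49). In the thermoneutral group, replicate 1 was the highest of all samples for Clock (0.78), Per1 (0.90), Npas2 (0.85), Per2 (2.84) and Cry1 (0.54), and it was the lowest of its group for Arntl (0.14), Per3 (-0.23) and Cry2 (0.05). Thermoneutral replicate 2 was the lowest of all samples for Nr1d1 (-2.13) and Nr1d2 (-1.58).

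Thermoneutral replicate 1 is the library with epithelial transcripts and cold replicate 2 the one with muscle transcripts, and the differences were recomputed without both, an alternative chosen after seeing the data. Arntl, Npas2, Per1, Cry1 and Cry2 were then still lower and Nr1d1 and Nr1d2 still higher by the same rule. Per2 lost its call (-4.69, limma adjusted p = 0.072), and Per3 gained one (-1.20, limma adjusted p = 0.049). This fit called 5639 of all 11629 tested genes, against 4824 with all 6 samples, so calls were common in it.

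**Figure D5:**
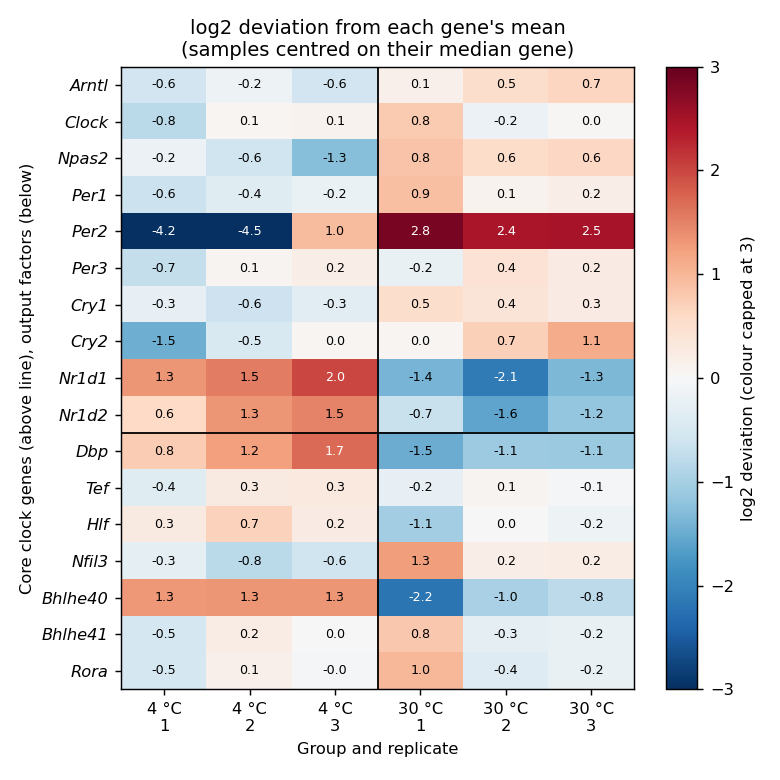
Log2 deviation of each clock gene (above the line) and of 7 output and ROR factors (below the line) from its own mean, by sample, after centring on the median gene; the colour scale is capped at 3 and each cell prints its value. Nr1d1, Nr1d2, Dbp and Bhlhe40 are positive in all cold and negative in all thermoneutral samples, and Per2 is at -4.2 and -4.5 in cold replicates 1 and 2 and at 1.0 in cold replicate 3.

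The output of the loop was read from 10 transcription factors that the clock controls or that act beside it, of which 8 were tested. Dbp and Bhlhe40 rose, Nfil3 fell, and 5 were not called, with a median log2 difference of -0.27 against -0.54 over all genes. Of all tested genes 35.2% were called lower and 6.25% higher. Dbp, a PAR bZIP activator driven by E-boxes, had scaled counts of 412, 665 and 845 in cold and 130, 181 and 177 in thermoneutral samples, a log2 difference of 1.93 (limma adjusted p = 0.0083; 2.46 after centring). Its order within the cold group, replicate 1 lowest and replicate 3 highest, was that of Nr1d1 and Nr1d2. That order was not particular to genes that rose, as Per1, Per3 and Cry2 had it too, and so did Crebbp and Ncor1 outside the members. Nfil3, a repressor that competes with DBP for D-boxes, had 403, 331 and 354 scaled counts in cold and 1790.5, 907 and 918 in thermoneutral samples (-1.66, limma adjusted p = 0.011; -1.12 after centring, adjusted p = 0.061).

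Bhlhe40 (DEC1), which represses through E-boxes, had 2259, 2671 and 2467 scaled counts in cold and 302, 746 and 838 in thermoneutral samples (2.10, limma adjusted p = 0.012). Dbp, Nfil3 and Bhlhe40 passed the test without each library in turn. Among those not called, the PAR bZIP factors Tef and Hlf, the DEC2 gene Bhlhe41 and the ROR receptor gene Rora had log2 differences of -0.39, 0.27, -0.74 and -0.80 (limma adjusted p of 0.14 to 0.54).

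Of 11 tested kinases, ubiquitin ligases and partners that act on the clock proteins, 6 fell and 0 rose in the limma fit, with a median log2 difference of -0.63. By the same rule 35.2% of all tested genes fell and 6.25% rose. After centring 0 fell and 1 rose, with a median of -0.09, against 5.41% and 10.3% of all tested genes. At an unadjusted p of 0.05 the limma counts were 8 lower and 0 higher, and 1 and 1 after centring. The share of all genes at that unadjusted threshold is not given, so such counts, here and in later lists, have no background to be read against. Timeless, a replication-fork protein named after a fly clock gene, fell by 1.22 on the log2 scale (limma adjusted p = 0.0096) and passed the test without each library in turn. Csnk1e, which phosphorylates PER (-0.67, limma adjusted p = 0.032), and the RNA-binding partner Nono (-0.67, limma adjusted p = 0.020) lost their calls without cold replicate 3 or thermoneutral replicate 2 or 3, and Csnk1e also without cold replicate 1 or 2, with adjusted p up to 0.088. Leaving out single libraries left 1 to 5 lower calls in this list.

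Of 9 NAD and chromatin partners, 5 fell and 0 rose in the limma fit (median -0.69), and after centring 0 were called, with a median of -0.15. The shares of all tested genes were 35.2% lower and 6.25% higher, and 5.41% and 10.3% after centring. At an unadjusted p of 0.05 the limma counts were 7 lower and 0 higher, and 2 and 2 after centring. The co-activators Crebbp (-1.35, limma adjusted p = 0.027) and Ep300 (-1.33, limma adjusted p = 0.028), the co-repressor Ncor1, through which NR1D1 acts (-1.07, limma adjusted p = 0.034), and the histone methyltransferase subunit Wdr5 (-0.69, limma adjusted p = 0.017) were the calls with the smallest adjusted p. Each was lost without thermoneutral replicate 2 or 3, Ep300 and Wdr5 also without cold replicate 3 and Ncor1 also without cold replicate 2, with adjusted p up to 0.0998, and 0 to 5 lower calls were left in the list when single libraries were removed.

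Of 7 tested genes with rhythms in many tissues, 4 fell and 1 rose (median -0.61), and after centring 1 fell and 2 rose. Among all tested genes 35.2% fell and 6.25% rose, and 5.41% and 10.3% after centring. Pdk4, the kinase that shuts off pyruvate dehydrogenase, was 4.33 higher on the log2 scale (limma adjusted p = 0.0011), and Tsc22d3, the glucocorticoid-induced leucine zipper gene, was lower (-1.87, limma adjusted p = 0.0061). Both passed the test without each library in turn. Leo1, a subunit of the PAF1 complex (-0.71, limma adjusted p = 0.028), and Angptl4, an inhibitor of lipoprotein lipase (-0.61, limma adjusted p = 0.029), each lost the call when replicate 2 or 3 of either group was left out, with adjusted p up to 0.106 and 1 to 4 lower calls left in the list.

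Genes linked to inputs known to reset peripheral clocks made up 3 further lists, and the inputs themselves were not measured. Glucocorticoid-induced genes gave 5 lower and 1 higher of 10 (median -0.86), and after centring 4 and 3. Beside them, all tested genes gave 35.2% lower and 6.25% higher, and 5.41% and 10.3% after centring. Fkbp5, a co-chaperone of the glucocorticoid receptor, had scaled counts of 308, 354 and 282 in cold and 3134, 2038 and 1947 in thermoneutral samples (-2.88, limma adjusted p = 0.0017; -2.35 after centring, adjusted p = 0.0024), and Mt2, a metallothionein, fell by 1.57 on the log2 scale (limma adjusted p = 0.0060). Both passed the test without each library in turn, as did the 2 other named genes of this list, Tsc22d3, which fell, and Pdk4, which rose. Tsc22d3 and Pdk4 also belong to the list of genes with rhythms in many tissues, so the 2 lists are not separate.

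Temperature-linked RNA-binding and heat shock genes gave 7 lower and 0 higher of 11 in the limma fit (median -0.71, with 8 and 0 at an unadjusted p of 0.05). After centring they gave 1 lower and 1 higher. All tested genes gave 35.2% lower and 6.25% higher at the adjusted threshold, and 5.41% and 10.3% after centring. Hsf1, the heat shock transcription factor, fell by 1.20 (limma adjusted p = 0.0082) and by 0.67 after centring (limma adjusted p = 0.044), and the co-chaperone Dnaja1 fell by 1.02 as deposited (limma adjusted p = 0.0085). Dnajb1 (-0.70, limma adjusted p = 0.020) and Hsph1 (-0.65, limma adjusted p = 0.022) each lost the call when replicate 2 or 3 of either group was left out, with adjusted p up to 0.087 and 2 to 9 lower calls in the list.

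A list of genes induced by cAMP and CREB gave 1 lower and 4 higher of 12 (median -0.05). It also holds genes of the pathway itself, among them Creb1, which was the lower call. After centring the list gave 0 lower and 5 higher in the limma fit, the same counts as at an unadjusted p of 0.05. At the adjusted threshold 35.2% of all tested genes were lower and 6.25% higher, and 5.41% and 10.3% after centring. Dio2, the deiodinase that makes active thyroid hormone in thermogenic fat, was 5.71 higher on the log2 scale (limma adjusted p = 0.00084) and passed the test without each library in turn. The phosphodiesterase gene Pde4d (1.52, limma adjusted p = 0.024), the co-activator gene Ppargc1a (1.79, limma adjusted p = 0.025) and Creb1 (-0.88, limma adjusted p = 0.021) lost their calls without cold replicate 3 or thermoneutral replicate 2, Pde4d and Ppargc1a also without cold replicate 2, Ppargc1a without cold replicate 1 and Creb1 without thermoneutral replicate 3, with adjusted p up to 0.077. Higher calls numbered 1 to 4 in this list when single libraries were removed.

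The 3 genes most like a member over the 6 samples were found by the Euclidean distance of their log2 values after each gene was centred on its mean. For Arntl they were Ptgfrn (distance 0.168), Ctsc (0.193) and Taok3 (0.237), whose log2 differences were -1.43, -1.45 and -1.33. For Nr1d1 they were Adrbk2 (0.594), Gm10053 (0.937) and Apoo (0.958), with 2.46, 2.66 and 2.27. For Per2 the nearest genes were farther, Nanp (3.51), Gbgt1 (4.12) and Dlg2 (4.33), and Nanp had 0, 0 and 1.15 scaled counts in cold and 132, 83.2 and 92.1 in thermoneutral samples. These distances describe a pattern over 6 samples in 2 groups.

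The depth behind the members was high except for Per2. Members other than Per2 rested on an estimated 53 to 2707 fragments per sample, and Per2 on as few as 1.94. Of the 60 member values, 44 were whole numbers of fragments within 0.02 of a fragment, and 6 members were whole in all samples. Values of Cry2 and Nr1d1 were whole in 0 of 6 samples, those of Per2 in 0 of 3 cold and 3 of 3 thermoneutral samples, and those of Arntl in 5 of 6.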

How the data were processed

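The study's methods describe TruSeq RNA libraries, NovaSeq sequencing, removal of genes with few reads, TMM and CPM. Bowtie 0.12.2, mm10 and mm8 are named in the notes of the submitters, with no role given to either build. The deposited FPKM values were, per the file headers, normalized by the authors for transcript length and library size. The deposited counts hold a signal scaled by the authors, with 1 size factor per sample. Of values under 20 fragments, 94.0% to 94.8% were whole multiples of 1 fragment within 0.02. Columns were matched to samples by initial and number.

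Genes kept had an FPKM of 1 or more in 3 or more samples (11629 genes). Cold and thermoneutral samples were compared on log2(scaled count + 1) with limma 3.58.1 (R 4.3.3), two-sided, with Benjamini-Hochberg adjustment and a threshold of 0.05. This scale understates changes of low genes. For 79 symbols with several rows the row of highest mean was used. The study states thresholds (p of 0.05, fold of 2) but no test for sequencing. Python 3.11.15 with pandas 2.3.3 read the tables. The fit was tested on simulated data.

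The members and lists were chosen with earlier results of these data known. Named genes were the 10 members, up to 4 called genes per list with the smallest adjusted p, and the 3 genes nearest to Arntl, Per2 and Nr1d1. Tef, Hlf, Bhlhe41, Rora and the overlapping genes Camta1, Thra and D930015M05Rik were named outside that rule, and some list members are not reported here. Alternatives changed the pseudocount, filter, value, scaling, limma options, thresholds, a replicate block and the samples included. No outlier test was run on groups of 3.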

Additional observations from a re-analysis of the deposited data

How the results depend on the processing

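Over 17 other settings the 10 log2 differences were recomputed 170 times. The sign was reversed in 0. A gene stayed called or stayed uncalled in 150, a call was lost in 18 and gained in 2. The 150 include 17 for Clock and 15 for Per3, the 2 genes without a call to keep. Arntl, Npas2, Cry1 and Nr1d1 kept their calls under each of the 17, and Clock stayed uncalled. The difference of Npas2 was -1.24 with quantile normalization. The 6 lower members became 3 with quantile normalization, where Per1, Per2 and Cry2 were lost, and 4 to 6 when single samples were left out. The 2 higher members became 1 without thermoneutral replicate 2 or 3. The count of all genes called, 4824 (4097 lower and 727 higher), was 1831 after median centring (629 and 1202), 1787 with quantile normalization, 2655 at the thresholds of the study and 1442 to 6070 when single samples were left out. The ratio Clock minus Per2 differed by 4.74 between the groups (3.64 to 6.35 when single samples were left out). It differed by 3.44 with a pseudocount of 10, by 5.06 with 0.1, and by 1.26 with FPKM plus 1, in which low values weigh less. Cry1 minus Per1 differed by 0.01, by -0.0074 with FPKM, and by -0.18 to 0.16 when single samples were left out. The cause of the other changes was not tested.

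The replicate numbers are shared between the groups. Deviations from the group means correlated by -0.0039, 0.036 and 0.064 between samples of the same number, and by -0.057 to 0.011 between samples of different numbers. As deviations within a group add up to 0, these values cannot settle whether equal numbers mark paired samples. With the replicate block 7 members were lower and 2 higher, Per3 being added (adjusted p = 0.040 by limma), and 3706 genes were called in all. Count models were not run, because too few values came out as whole fragments to recover the reads. Depth limits Per2 in cold replicates 1 and 2, and 3 samples per group limit every call.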
